A study of Homo sapiens with 4 samples.

Results

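DNA replication copies the genome once in each S phase. In G1 the origin recognition complex (ORC), CDC6 and CDT1 load the MCM helicase onto origins, and in S phase CDC45 and the GINS complex turn that helicase on. The primase and the DNA polymerases then copy both strands on a template that RPA protects, the sliding clamp PCNA and its loader RFC hold the polymerases in place, and FEN1 and LIG1 join the fragments of the lagging strand. Many of the genes are transcribed in a wave at the G1 to S transition under E2F factors. Human embryonic stem cells have a short G1 phase, and a large share of a growing culture is in S phase.

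The genes described here are 49 replication and S phase genes, chosen by symbol, as measured on expression arrays of the human embryonic stem cell line H9, a long-established line. A gene was counted as measured when at least 1 of its probes was brighter than nearly all negative controls (detection p under 0.01) on at least 1 array, which held for 47 of the 49 genes and for 10457 genes in all. There were 4 samples with 1 array each, all collected on day 2: high density with 20 mM sodium bicarbonate added to the medium, high density in control medium, low density with 20 mM added bicarbonate, and low density in control medium. All cells grew in E8, a defined serum-free medium, on plates coated with Matrigel, a basement membrane extract, with a daily medium change. High density means above 90% confluence and low density below 70% confluence. By its title the series is about holding back acidosis of the medium in crowded pluripotent cultures. With 1 array per group no difference has a replicate check, no p-value is given, and the number of arrays limits the precision. Values are normalized log2 intensities of the brightest detected probe of a gene, and a difference of 0.58 on this scale is a 1.5-fold difference in intensity. Bulk RNA cannot tell fewer cells in S phase from less of these RNAs per cell.

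The arrays detected between 14128 and 15213 of 47293 probes. Median intensity before normalization was 117.4 on the array of high density with bicarbonate and between 153.5 and 166.6 on the other 3. Of 10 listed markers of pluripotent stem cells 9 had a probe under the listed symbol, and all 9 were detected on all 4 arrays, among them POU5F1, NANOG and SOX2. Of 5 endoderm markers FOXA2 and AFP were detected, at low density alone, and SOX17, GATA4 and GATA6 were not detected on any array. The summed intensity of the measured endoderm markers before normalization was 222.2 with bicarbonate and 303.9 in control medium at high density. At low density it was 1619 with bicarbonate and 1181 in control medium. Of the 9 pluripotency markers 4 (NANOG, CRIPTO, L1TD1 and DNMT3B) were lower on both high-density arrays than on both low-density arrays, 2 were higher and 3 overlapped. CRIPTO differed by -1.22 with bicarbonate and -0.64 in control medium, and L1TD1 by -0.79 and -0.64. Of 8 fibroblast or mesenchyme markers COL1A1, COL1A2, PDGFRB and THY1 were measured, and all 4 were higher on both high-density arrays, COL1A1 by 1.198 with bicarbonate and 0.31 in control medium and COL1A2 by 1.37 and 0.17, while COL3A1, LUM, DCN and TWIST1 were not detected. The summed intensity of the 4 measured ones before normalization was 5968 with bicarbonate and 10229 in control medium at high density. At low density it was 5725 with bicarbonate and 7397 in control medium. After normalization, bicarbonate minus control at high density was 0.99 for COL1A1 and 0.58 for COL1A2. It was -0.52 for PDGFRB and -0.32 for THY1. Of 5 mesoderm markers KDR alone was measured and was higher at high density, by 1.44 with bicarbonate and 0.57 in control medium. Of 4 neuroectoderm markers 1 was measured, NES, which overlapped, and of 4 trophoblast markers 0. THY1, listed as a fibroblast or mesenchyme marker, was bright on all 4 arrays, between 12.12 and 12.84. These markers do not show that other cell types were present, and any part of such cells in the density differences below was not tested.

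The first comparison asked how the replication genes of dense cultures differed from those of sparse cultures in control medium. Of 45 genes detected on both arrays, 11 were at least 1.5-fold lower at high density and 1 was at least 1.5-fold higher. Over all 8936 genes measured in that comparison, 11.9% were at least 1.5-fold lower and 12.0% at least 1.5-fold higher. The median log2 difference of the replication genes was -0.31, against 0.01 over all genes, and 31 of the 45 lay below 0. The lowest of these were the GINS subunit GINS3 (-1.57), the helicase subunit MCM5 (-1.26), the clamp loader subunit RFC3 (-1.05) and thymidine kinase, TK1 (-1.03), the 4 that were at least 2-fold lower, as were 2.84% of all genes. With arrays scaled to equal medians instead of equal distributions, 13 of the 45 were at least 1.5-fold lower and 1 higher, where 15.2% of all genes were lower and 9.71% higher.

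The same question was asked of the cultures with added bicarbonate, on the other 2 arrays. Of 45 genes detected on both, 15 were at least 1.5-fold lower at high density and 0 were higher, where 12.0% of 8836 genes were lower and 11.5% higher. The median was -0.43, against -0.03 over all genes, and 37 of the 45 lay below 0. GINS3 was again the lowest (-1.55), followed by RRM2, the small subunit of ribonucleotide reductase (-1.49), by the dUTP-degrading enzyme DUT (-1.22), and by the flap endonuclease FEN1 (-0.93). The first 3 of these were at least 2-fold lower, as were 2.93% of all genes. With equal medians 22 of the 45 were at least 1.5-fold lower and 0 higher, where 15.97% of all genes were lower and 9.93% higher.

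The density differences in control medium and with bicarbonate share no array. Across 44 replication genes detected on all 4 arrays they had a Pearson correlation of 0.51, and across all 8554 such genes of 0.58. Each point compares the same probe in both media, and all arrays were normalized together. Of the 44 genes 33 (75%) had the same sign in both media, against 67.7% of all genes, and 28 (63.6%) were below 0 in both, against 34.7% of all genes. Those at least 1.5-fold lower in both were GINS2, GINS3, POLE2, RFC3, FEN1, TK1 and CHAF1A, which are 63.6% of the 11 lower in control medium and 50% of the 14 lower with bicarbonate. Over all genes those lower in both media were 42.0% of those lower in control medium and 44.2% of those lower with bicarbonate. ORC1, MCM4, MCM5 and PRIM1 were past 1.5-fold in control medium alone. GMNN, ORC5, MCM2, MCM6, POLA1, DUT and SLBP were past it with bicarbonate alone. With single arrays, being past the threshold in 1 medium does not show that the media differ.

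**Figure D1:**
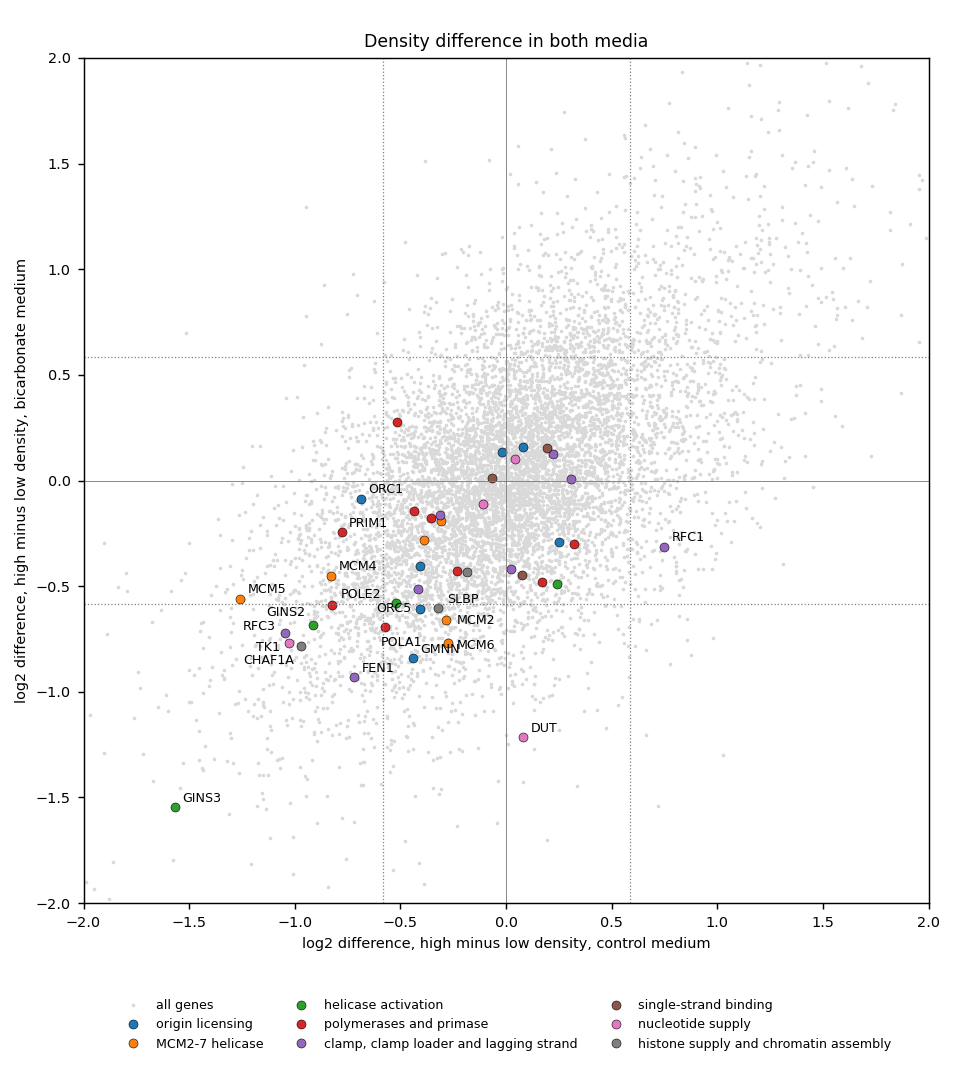
Log2 difference of high minus low density in control medium (x axis) and with bicarbonate (y axis) for replication genes in the colour of their role and all genes in grey (35 of 8554 outside the axes), with dotted lines at 1.5-fold. Most replication genes lie left of and below 0, GINS3 lies lowest on both axes, and RFC1 is the 1 replication gene past 1.5-fold on the right.

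Another reading, which was not planned and was added after seeing the data, sets both high-density arrays against both low-density arrays. It asks for no fold. In 28 of the 44 replication genes both high-density arrays lay below both low-density arrays, where 31.3% of 8554 genes did. In 5 genes, namely ORC6, RFC2, RFC4, RPA3 and TYMS, both lay above, where 29.1% of all genes did, and in 11 the densities overlapped. The gap between the nearest arrays of both densities was at least 1.5-fold in 5 genes, GINS3, TK1, RFC3, FEN1 and CHAF1A, and in 334 of all genes. Among the 28 genes it was as small as -0.06, in POLD3. These 28 are the same genes as those below 0 in both media, so that the reading adds no separate support.

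**Figure D2:**
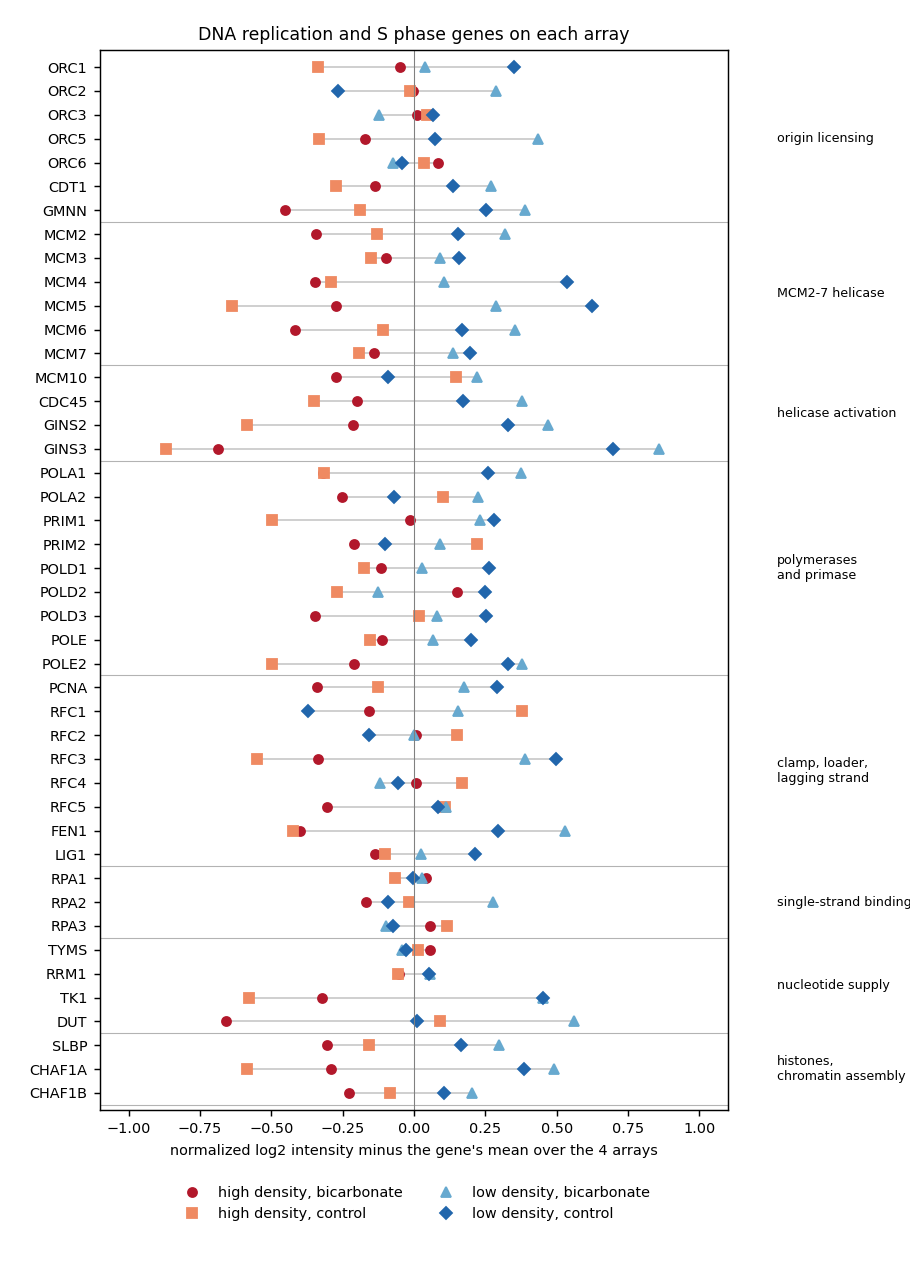
Normalized log2 intensity of 44 replication genes on each of the 4 arrays, minus the mean of the gene over the arrays (x axis), with genes in lines grouped by role; circles and squares are the high-density arrays with bicarbonate and in control medium, triangles and diamonds the low-density arrays with bicarbonate and in control medium. In 28 genes both high-density symbols lie left of both low-density symbols, among them all 6 of the MCM helicase, and in 5 genes they lie right of them.

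The genes of origin licensing differed among themselves. ORC1, the ORC subunit that cycles with the cell cycle, stood at 8.39 with bicarbonate and 8.10 in control medium at high density, against 8.47 with bicarbonate and 8.78 in control medium at low density. Its density difference was -0.09 with bicarbonate and -0.69 in control medium. ORC5 stood at 9.50 with bicarbonate and 9.34 in control medium at high density, against 10.10 and 9.74 in the same media at low density. Both high-density arrays were below both low-density arrays in each of these genes. GMNN codes for geminin, which blocks a second round of loading. Its level was 9.93 with bicarbonate and 10.19 in control medium at high density, against 10.77 with bicarbonate and 10.63 in control medium at low density, so that it was 1.79-fold lower at high density with bicarbonate and 1.36-fold lower in control medium. The loading factor CDT1, which geminin binds, was 1.32-fold lower with bicarbonate and 1.33-fold lower in control medium. ORC2 and ORC3 overlapped between densities, with ORC3 between 10.03 and 10.21 on all arrays. ORC6 lay between 14.52 and 14.68, close to the top of the scale at 14.79, where differences are compressed, and its second probe gave density differences of 0.13 with bicarbonate and -0.09 in control medium.

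CDC6 and GINS4 were at the limit of detection, and ORC4 and GINS1 below it. The probe of CDC6, which recruits the helicase loader, was detected on both low-density arrays (detection p 0.00649 on each) and on neither high-density array (0.0519 with bicarbonate and 0.126 in control medium). Its normalized level was 5.60 with bicarbonate and 5.26 in control medium at high density, against 6.80 with bicarbonate and 6.47 in control medium at low density. A lower bound of its fold, the brighter array against the higher of the dim probe and the dimmest detected probe of the other array, was at least 1.41-fold lower at high density with bicarbonate and at least 1.04-fold lower in control medium. GINS4 was detected on both control arrays alone, with a density difference of 0.31. ORC4 and GINS1 were the 2 genes not measured, with lowest detection p-values of 0.0675 and 0.0442.

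All 6 subunits of the MCM helicase were lower at high density in both media, as were 34.7% of all genes. Their medians were -0.51 with bicarbonate and -0.35 in control medium. In each medium 2 of 6 were at least 1.5-fold lower, where 12.0% of all genes were with bicarbonate and 11.9% in control medium. MCM5 stood at 10.54 with bicarbonate and 10.18 in control medium at high density, against 11.10 with bicarbonate and 11.44 in control medium at low density. It was 1.47-fold lower at high density with bicarbonate and 2.39-fold lower in control medium. MCM4 stood at 10.18 with bicarbonate and 10.24 in control medium at high density, against 10.63 with bicarbonate and 11.06 in control medium at low density, and both of its probes were lower in control medium (-0.83 and -0.69). The order of the media was the other way for MCM6, which was 1.70-fold lower at high density with bicarbonate and 1.21-fold lower in control medium. Its levels were 11.65 with bicarbonate and 11.96 in control medium at high density, against 12.42 with bicarbonate and 12.23 in control medium at low density. MCM2 was likewise 1.58-fold lower with bicarbonate and 1.22-fold lower in control medium, from 9.83 and 10.05 at high density against 10.50 and 10.33 at low density (bicarbonate, then control). MCM3 and MCM7 were below 1.5-fold throughout, with density differences between -0.39 and -0.19.

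The factors that turn the loaded helicase on held GINS3, the gene furthest below 0 among those detected on both arrays of a density comparison. GINS3 stood at 7.85 with bicarbonate and 7.67 in control medium at high density, against 9.40 with bicarbonate and 9.24 in control medium at low density. Its intensities before normalization were 275.7 with bicarbonate and 341.3 in control medium at high density, against 775.9 and 848.8 in the same media at low density. By the normalized levels it was 2.92-fold lower at high density with bicarbonate and 2.96-fold lower in control medium, while the media differed by at most 1.13-fold at either density. These folds depend on the background correction. Without it the density difference of GINS3 was -1.19 with bicarbonate and -1.17 in control medium, where MCM5 was then as low (-1.18). GINS2, of the same complex, stood at 11.26 with bicarbonate and 10.89 in control medium at high density, against 11.94 with bicarbonate and 11.80 in control medium at low density, a density difference of -0.68 with bicarbonate and -0.92 in control medium. CDC45, the partner of GINS in the active helicase, had density differences of -0.58 with bicarbonate and -0.52 in control medium, just short of 1.5-fold. MCM10, needed for helicase activation, overlapped between densities (-0.49 with bicarbonate and 0.24 in control medium), and its second probe gave -0.44 with bicarbonate and -0.79 in control medium, so that the probes disagreed in control medium.

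Among polymerases and primase, 2 of 9 genes were at least 1.5-fold lower at high density in each medium. Of all genes 12.0% were with bicarbonate and 11.9% in control medium. POLE2, a subunit of the leading-strand polymerase epsilon, stood at 9.14 with bicarbonate and 8.85 in control medium at high density, against 9.73 with bicarbonate and 9.68 in control medium at low density. Its catalytic partner POLE was lower by less, with differences of -0.18 with bicarbonate and -0.35 in control medium. POLA1, the catalytic subunit of the polymerase that extends primers, stood at 9.87 in both media at high density, against 10.56 with bicarbonate and 10.45 in control medium at low density. The primase subunit PRIM1 was 1.19-fold lower at high density with bicarbonate and 1.71-fold lower in control medium, and its second probe gave -0.15 with bicarbonate and -0.94 in control medium. Its levels were 9.94 with bicarbonate and 9.45 in control medium at high density, against 10.18 with bicarbonate and 10.23 in control medium at low density. The high-density control array was therefore the low one for PRIM1. The other primase subunit PRIM2 and the second subunit of polymerase alpha, POLA2, overlapped between densities. Of the delta polymerase, POLD1 and POLD3 lay lower at high density by less than 1.5-fold in both media, and POLD2 differed by 0.28 with bicarbonate and -0.52 in control medium.

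In the group of clamp, clamp loader and lagging-strand enzymes, RFC3 and FEN1 were at least 1.5-fold lower in both media and no other member was in either. RFC3 stood at 8.78 with bicarbonate and 8.57 in control medium at high density, against 9.51 with bicarbonate and 9.62 in control medium at low density, and its second probe was lower in both media too (-0.58 with bicarbonate and -0.93 in control medium). FEN1, which trims the flaps between lagging-strand fragments, stood at 10.59 with bicarbonate and 10.56 in control medium at high density, against 11.52 with bicarbonate and 11.28 in control medium at low density. Both of its probes were past 1.5-fold in both media, the second with -0.79 with bicarbonate and -1.41 in control medium. PCNA, the clamp, was 1.43-fold lower at high density with bicarbonate and 1.33-fold lower in control medium, at 11.65 with bicarbonate and 11.86 in control medium, against 12.16 with bicarbonate and 12.27 in control medium at low density. DNA ligase 1, LIG1, was lower by 1.12-fold and 1.24-fold in the same order of media. RFC1, the large loader subunit, stood at 8.91 with bicarbonate and 9.44 in control medium at high density, against 9.22 with bicarbonate and 8.70 in control medium at low density. It was the 1 gene at least 1.5-fold higher at high density in control medium (0.75), where its second probe gave 0.41 and the mean of both 0.58, just under the threshold. With bicarbonate its probes disagreed in sign, with -0.31 on the brightest and 0.62 on the second. RFC2, RFC4 and RFC5 stayed within 1.34-fold in both media.

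Of the subunits of RPA, the single-strand binding protein, none of the 3 was past 1.5-fold in any comparison. The brightest probe of RPA1 differed between densities by 0.01 with bicarbonate and -0.07 in control medium. Its other probes gave 0.12 and -0.11 with bicarbonate and -0.47 and -0.42 in control medium, so that its probes disagreed in control medium. RPA3 differed by 0.16 with bicarbonate and 0.19 in control medium, and RPA2 by -0.45 with bicarbonate and 0.07 in control medium.

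Enzymes of nucleotide supply split into those near 0 and those far below. RRM2 had intensities before normalization of 155.4 with bicarbonate and 204.1 in control medium at high density, against 333.9 with bicarbonate and 590.9 in control medium at low density. It was detected on 3 arrays and missed the limit in the high-density control (detection p 0.0143). It was 2.81-fold lower at high density with bicarbonate and at least 4.57-fold lower in control medium. Both values rest on the background correction. Without it the density difference with bicarbonate was -0.81 in place of -1.49, and the bound in control medium was at least 2.51-fold. Its partner RRM1, the large subunit of ribonucleotide reductase, stood at 11.60 in both media at high density, against 11.71 in both media at low density. TK1, which salvages thymidine, stood at 9.56 with bicarbonate and 9.30 in control medium at high density, against 10.33 in both media at low density, which made it 1.71-fold lower with bicarbonate and 2.04-fold lower in control medium. TYMS, which makes thymidylate anew, differed by 0.10 with bicarbonate and 0.04 in control medium. DUT stood at 8.85 with bicarbonate and 9.60 in control medium at high density, against 10.07 with bicarbonate and 9.52 in control medium at low density. Its 3 probes disagreed. The brightest gave density differences of -1.22 with bicarbonate and 0.08 in control medium, and the second brightest -0.97 and -0.95. The dimmest, at levels between 6.70 and 6.90, gave 0.11 with bicarbonate and -0.14 in control medium.

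The genes that supply and deposit histones behind the fork were all lower at high density. CHAF1A, the large subunit of chromatin assembly factor 1, stood at 8.30 with bicarbonate and 8.004 in control medium at high density, against 9.08 with bicarbonate and 8.97 in control medium at low density. It was 1.72-fold lower with bicarbonate and 1.96-fold lower in control medium. CHAF1B was lower by less, at 1.35-fold and 1.14-fold in the same order. SLBP, which binds the stem-loop of histone mRNAs, stood at 9.97 with bicarbonate and 10.12 in control medium at high density, against 10.57 with bicarbonate and 10.44 in control medium at low density, and was 1.52-fold lower with bicarbonate and 1.25-fold lower in control medium.

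Probes of the same gene give the only repeat of a measurement. They share their RNA and their array and are not replicates of a culture. For 14 replication genes more than 1 probe was detected on every array. Density differences of the brightest and the second probe differed by a median of 0.13 with bicarbonate and 0.17 in control medium, with SDs of 0.25 and 0.44. Bicarbonate differences of these probes differed by a median of 0.21 at high and 0.28 at low density, with SDs of 0.40 and 0.26. Over all 1738 such genes the Pearson correlation between probes was 0.69 and 0.56 for the density differences, in the same order. For the bicarbonate differences it was 0.46 at high density and 0.13 at low density. The lower levels of FEN1, MCM4, PRIM1 and RFC3 in control medium were on more than 1 probe. The higher level of RFC1 passed 1.5-fold on the brightest probe alone, and RFC2 and MCM10 had second probes at -0.77 and -0.79 in control medium, against 0.31 and 0.24 on their brightest.

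**Figure D3:**
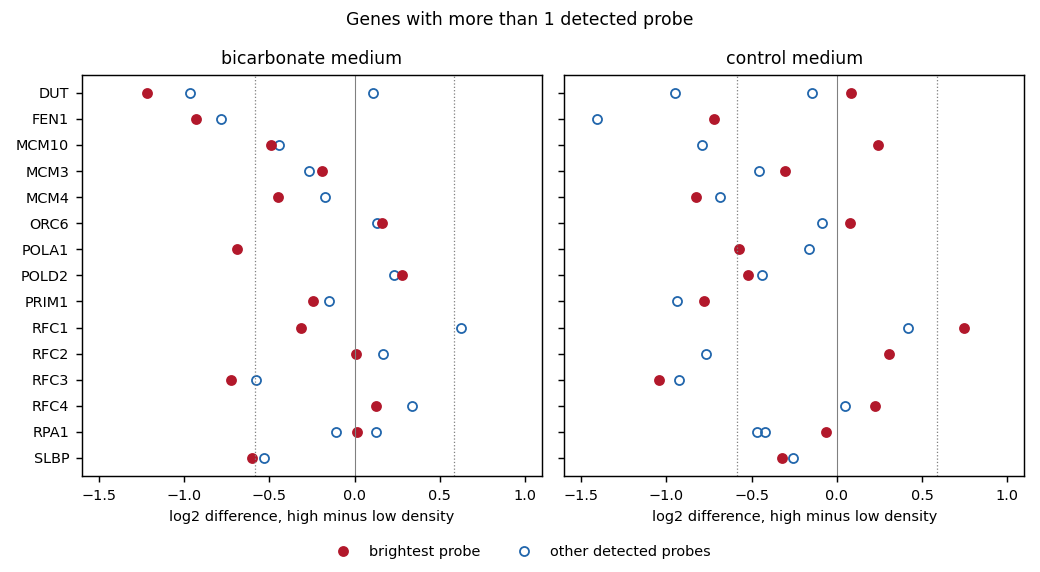
Log2 difference of high minus low density (x axis) for each detected probe of the 15 replication genes with more than 1, with bicarbonate (left) and in control medium (right), as filled points for the brightest probe and open points for the others, with dotted lines at 1.5-fold. The probes of FEN1 and RFC3 lie together on the low side in both media, and those of DUT, MCM10, RFC1 and RFC2 lie apart in at least 1 medium.

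The promoters were searched for letters that the choice of the genes did not use. A promoter window of 300 bases, from 250 before to 50 after the start in RefSeq on GRCh38.p14, was given for 43 of the 49 genes. Windows were searched on both strands for the E2F words TTTCCCGC, TTTCGCGC, TTTGCCGC and TTTGGCGC, which can overlap each other, as they do in MCM2 and MCM6, and separately for CCAAT. An E2F word stood in 18 of 43 windows (41.9%), against 908 of 27305 windows of all genes (3.33%). CCAAT stood in 23 of 43 (53.5%), against 35.7% of all windows, and 10 of the 43 held both. An E2F word stood in 7 of 17 windows of measured replication genes at least 1.5-fold lower at high density in either medium (41.2%). Among the other measured replication genes with a window it stood in 10 of 24 (41.7%). CDC6 is counted among these others and holds a word, but it was detected on neither high-density array and has no density difference. A match is a string of letters and not a binding site.

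Of the 7 genes lower in both media 4 had such a word, and their windows are printed to show where it lies. GINS3 (chr16:58392221-58392520, plus strand) holds it from 5 bases before the start. In GINS2 (chr16:85688905-85689204, minus strand) it begins 31 bases before, in POLE2 (chr14:49688165-49688464, minus strand) 5 bases before, and in RFC3 (chr13:33817899-33818198, plus strand) 55 bases before. FEN1, TK1 and CHAF1A had none in their windows. ORC3 (chr6:87589885-87590184, plus strand) is printed beside them because it holds the same word as GINS3, GINS2 and RFC3, from 12 bases before its start, while its levels lay between 10.03 and 10.21 on the 4 arrays. In all 5 the word lies on the strand opposite to the gene. Each window is written 5′ to 3′ on the strand of the gene, with the E2F word in capitals.
GINS3: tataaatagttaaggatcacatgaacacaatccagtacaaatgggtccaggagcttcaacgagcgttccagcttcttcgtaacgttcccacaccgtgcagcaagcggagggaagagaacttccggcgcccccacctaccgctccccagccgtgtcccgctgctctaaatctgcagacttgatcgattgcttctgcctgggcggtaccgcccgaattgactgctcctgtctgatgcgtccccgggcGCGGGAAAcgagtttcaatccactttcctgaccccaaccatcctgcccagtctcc
GINS2: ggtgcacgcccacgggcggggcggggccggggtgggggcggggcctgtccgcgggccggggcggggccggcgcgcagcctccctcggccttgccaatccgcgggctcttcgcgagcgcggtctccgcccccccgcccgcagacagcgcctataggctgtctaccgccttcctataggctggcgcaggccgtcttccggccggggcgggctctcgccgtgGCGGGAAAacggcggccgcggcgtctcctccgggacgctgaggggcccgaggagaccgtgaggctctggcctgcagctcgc
POLE2: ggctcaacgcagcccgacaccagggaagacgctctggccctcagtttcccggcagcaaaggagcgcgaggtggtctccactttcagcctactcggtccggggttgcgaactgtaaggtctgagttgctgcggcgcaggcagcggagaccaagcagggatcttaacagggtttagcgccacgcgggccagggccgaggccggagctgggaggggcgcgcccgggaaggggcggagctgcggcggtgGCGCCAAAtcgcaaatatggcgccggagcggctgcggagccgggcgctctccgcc
RFC3: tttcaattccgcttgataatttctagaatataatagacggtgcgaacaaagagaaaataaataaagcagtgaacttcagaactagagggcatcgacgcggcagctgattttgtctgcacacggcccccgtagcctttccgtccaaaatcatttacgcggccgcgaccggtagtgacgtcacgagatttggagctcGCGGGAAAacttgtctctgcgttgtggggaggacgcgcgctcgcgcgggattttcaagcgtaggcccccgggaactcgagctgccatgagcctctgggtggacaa
ORC3: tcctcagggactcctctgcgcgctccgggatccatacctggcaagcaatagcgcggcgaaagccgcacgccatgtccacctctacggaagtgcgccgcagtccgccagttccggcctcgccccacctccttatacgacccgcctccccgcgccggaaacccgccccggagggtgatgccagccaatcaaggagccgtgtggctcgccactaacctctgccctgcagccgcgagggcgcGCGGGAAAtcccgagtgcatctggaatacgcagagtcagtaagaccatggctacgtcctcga

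Added bicarbonate was compared with control medium at high density next. Of 44 replication genes detected on both arrays, 0 were at least 1.5-fold higher, where 4.49% of 9188 genes were, and 1 was at least 1.5-fold lower, where 4.47% were. That gene was DUT (-0.75), and its other probes gave 0.20 and 0.05. The median was 0.01, against 0.02 over all genes, and the quartiles were -0.17 and 0.15, against -0.20 and 0.22 over all genes. The highest was PRIM1 at 1.40-fold (0.49), with 0.61 on its second probe. POLD2 (0.42), GINS2 (0.37) and MCM5 (0.36) came next. At the low end after DUT stood RFC1 (-0.54), with 0.46 on its second probe, PRIM2 (-0.43), MCM10 (-0.42) and RFC5 (-0.41). GINS3 (0.18), RFC3 (0.21), TK1 (0.26), CHAF1A (0.29) and FEN1 (0.02), all of them far below the low-density level in control medium, were within 1.22-fold of the high-density control. With equal medians 4 of the 44 (DUT, RFC1, MCM6 and RFC5) were at least 1.5-fold lower and 0 higher, where 8.75% of all genes were lower and 2.45% higher, and the median of all genes was then -0.14. This comparison shares the high-density control array with the density comparison in control medium.

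At low density added bicarbonate left the replication genes as close to control. Of 46 genes detected on both arrays, 0 were at least 1.5-fold higher, where 2.24% of 8973 genes were. RRM2 was the 1 gene at least 1.5-fold lower (-0.76), where 1.48% of all genes were. Its level was 7.85 with bicarbonate and 8.60 in control medium. The median was 0.04, against 0.03 over all genes. With equal medians 1 of the 46 was still at least 1.5-fold lower, where 5.17% of all genes were lower and 0.580% higher. The highest were ORC2 (0.55), DUT (0.55, with -0.05 and 0.07 on its other probes) and RFC1 (0.52, with 0.25 on its second probe), and the lowest after RRM2 were MCM4 (-0.43) and POLD2 (-0.38).

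**Figure D4:**
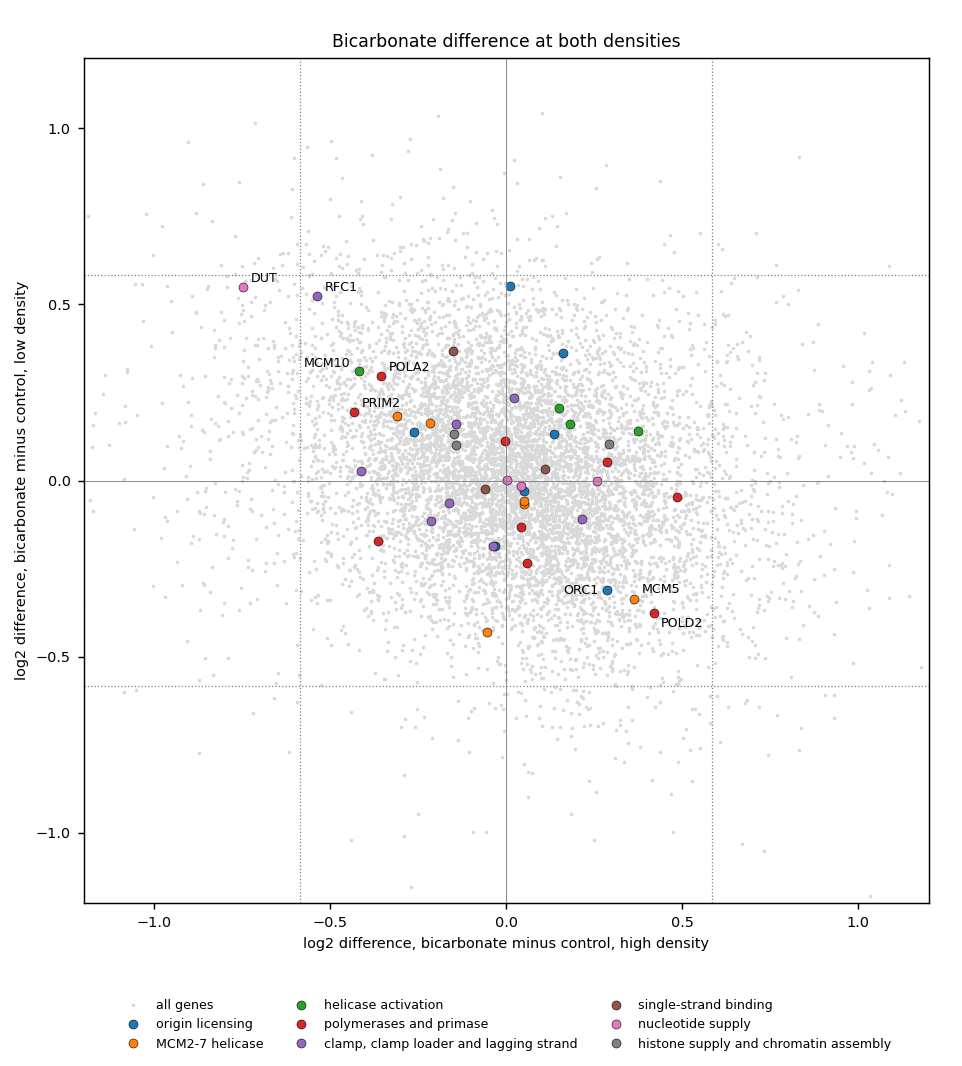
Log2 difference of bicarbonate minus control medium at high density (x axis) and at low density (y axis) for replication genes in the colour of their role and all genes in grey (37 of 8554 outside the axes), with dotted lines at 1.5-fold. The replication genes lie around 0 within the cloud of all genes, DUT is the 1 past 1.5-fold on the x axis, and the labelled genes are those whose bicarbonate differences were at least 1.5-fold apart between densities.

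The bicarbonate difference at high density minus that at low density asked whether density mattered for it. Its median over 44 replication genes was -0.02, against 0.00 over all genes. It was at least 1.5-fold above 0 in 3 genes, where 10.4% of 8554 genes were, and at least 1.5-fold below 0 in 5, where 10.7% were. The bicarbonate differences at both densities share no array, and their Pearson correlation was -0.47 across these 44 genes and -0.24 across all genes, each point comparing the same probe at both densities on arrays normalized together.

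**Figure D5:**
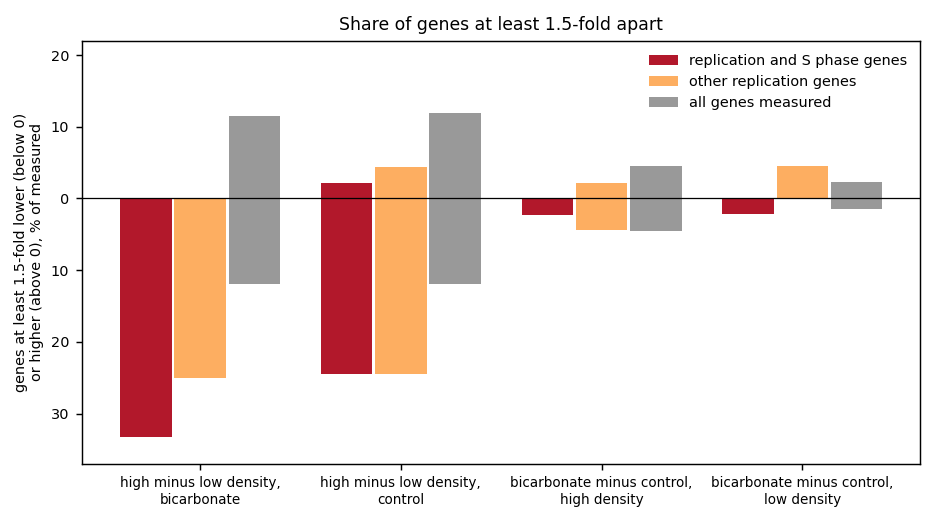
Share of measured genes at least 1.5-fold higher (above 0) or lower (below 0), in percent, in each of 4 comparisons, for the replication and S phase genes (red), the other replication genes (orange) and all genes (grey). The replication genes reach 33.3% lower with bicarbonate and 24.4% lower in control medium in the density comparisons, against 12.0% and 11.9% of all genes, and 2.27% and 2.17% lower in the bicarbonate comparisons at high and low density.

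A second list held 60 other genes of S phase control, fork protection and replication-coupled chromatin, of which 49 were measured. With bicarbonate 11 of 44 lay at least 1.5-fold lower at high density and 0 higher, against 12.0% and 11.5% of all genes. In control medium 11 of 45 lay lower and 2 higher, against 11.9% and 12.0% of all genes. The medians were -0.23 with bicarbonate and -0.24 in control medium. Both high-density arrays lay below both low-density arrays in 23 of 44, where 31.3% of all genes did. The lowest in control medium was UHRF1, which brings the maintenance methyltransferase to newly copied DNA (-1.97), at 9.98 with bicarbonate and 9.24 in control medium at high density, against 11.09 with bicarbonate and 11.21 in control medium at low density. TIPIN, of the fork protection complex, followed at -1.44, the phosphatase CDC25A, which activates the kinase of S phase, at -1.17 and the helicase RECQL4 at -1.12. With bicarbonate the same genes stood at -1.11, -1.36, -1.04 and -0.40, UHRF1 first. The 2 higher ones were RRM2B, the stress-induced counterpart of RRM2, at 1.14 and the topoisomerase TOP2A at 0.93 in control medium. RRM2B stood at 8.89 with bicarbonate and 9.57 in control medium at high density, against 8.80 with bicarbonate and 8.43 in control medium at low density, so that the high-density control was the high array. Between media at high density UHRF1 was higher with bicarbonate (0.74), and E2F2 (-0.75) and RRM2B (-0.68) were lower, 1 and 2 of 45 genes. These shares of 2.22% and 4.44% were no larger than those of all genes, 4.49% higher and 4.47% lower. At low density 2 of 44, the replication timing factor RIF1 (0.70) and the chromatin remodeller HELLS (0.59), were higher with bicarbonate and 0 lower. Of all genes 2.24% were higher and 1.48% lower in that comparison.

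The E2F genes themselves, chosen here after their values were seen, did not move as 1 group. E2F2 differed between densities by -1.27 with bicarbonate and by -0.23 in control medium. E2F3 differed by -0.09 and 0.04 in the same order, and E2F7 by -0.54 and 0.33. TFDP1, a partner with which E2F proteins such as E2F1 bind DNA, was lower in both media (-0.92 with bicarbonate and -1.11 in control medium). E2F1 was dim and was detected on 2 arrays, namely the high-density control, with a level of 7.52, and the low-density culture with bicarbonate, with 6.70. It was at least 2.31-fold lower with bicarbonate than in control medium at high density, and between densities it was at least 1.31-fold lower at high density with bicarbonate and at least 2.21-fold higher at high density in control medium. These bounds use background-corrected values and were not computed without that correction. Intensities of E2F1 before normalization were 143.2 with bicarbonate and 319.1 in control medium at high density. At low density they were 214.6 and 196.7.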

How the data were processed

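RNA of 4 cultures of H9 cells was read on Illumina BeadChip arrays, 1 per group. Groups were taken from the sample titles. RNA was purified on RNeasy columns and amplified with the TargetAmp-Nano kit, per the labels' protocols. The deposited table holds raw intensities per probe and a detection p-value for each, per the file headers. The deposited values of each sample are on a log2 scale, and their normalization is not given in the sources used here. Both were given by the authors without replicates.

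From the intensities, background was corrected with negative controls inferred from the detection p-values and arrays were quantile normalized with offset 16 (neqc, limma 3.58.1, R 4.3.3), which removes a change common to all genes. A detection p-value is read as the share of negative controls brighter than the probe. Probes were named through the platform annotation: 30098 carried 1 symbol, 8 several and 17187 none, and only the first were used. The brightest probe with a detection p under 0.01 on at least 1 array stood for a gene, and a comparison used genes detected on both of its arrays. Levels of different probes were not compared. Differences of at least 1.5-fold were counted, beside their share over all genes. The normalization was checked on simulated data.

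Replication genes at least 1.5-fold apart in any comparison are given with their level on every array and the others by level or range within their role. Of the other replication genes, the 4 furthest apart per direction are named for density in control medium and for bicarbonate at high density. The replication genes and the other lists were chosen with earlier results of these data known. Alternatives were the deposited log2 values, no background correction, equal medians, a detection p under 0.05, the mean of all detected probes, and a log2 level of at least 8. Promoter windows were those of RefSeq (GRCh38.p14). Tables were handled in Python 3.11.15 with pandas 2.3.3 and numpy 2.4.6, and figures drawn with matplotlib 3.10.9.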

Additional observations from a re-analysis of the deposited data

Results flagged for a closer look

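For 8 replication genes the bicarbonate difference had opposite signs at high and at low density and the differences were at least 1.5-fold apart. With 1 array per group these were not tested. Among all genes 10.4% were as far apart upwards and 10.7% downwards, where 3 and 5 of 44 replication genes were. The bicarbonate difference at high density minus that at low density was 0.80 for POLD2, 0.70 for MCM5 and 0.60 for ORC1, which were higher with bicarbonate at high density and lower with it at low density. It was -1.30 for DUT, -1.06 for RFC1, -0.73 for MCM10, -0.65 for POLA2 and -0.62 for PRIM2, which went the opposite way. Where more than 1 probe was detected, the other probes did not all follow. Those of DUT gave 0.20 and 0.05 at high density, against -0.05 and 0.07 at low density, and that of RFC1 gave 0.46 at high and 0.25 at low density. The second probe of MCM10 gave 0.14 at high density and -0.20 at low density, the reverse of its brightest (-0.42 and 0.31). The second probe of POLD2 gave 0.10 at high density and -0.57 at low density, the same signs as its brightest.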

How the results depend on the processing

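Of 84 counts and medians of the replication genes under the alternatives, 9 moved. A count was called moved if it changed by more than 1.5-fold or to or from 0, and a median if it changed by at least 0.1. The rule is wide: a change from 15 to 22 genes lower at high density with bicarbonate was not called moved. The density medians kept their sign, and 6 of the 30 medians, all of bicarbonate comparisons that lie near 0, changed sign: with equal medians that at high density and that at low density (-0.05), with the mean of probes those at high density (-0.01) and low density (-0.01) and the difference between densities (0.04), and with a log2 level of at least 8 the last of these (0.00). The count lower at high density was 12 to 22 with bicarbonate, where 6.73% to 15.97% of all genes were lower. In control medium it was 10 to 13, where 6.58% to 15.2% of all genes were. Both high-density arrays lay below both low-density arrays in 26 to 29 genes, where 29.8% to 34.8% of all genes did. That last reading, and the bound of RRM2 without background correction, were not planned and were added after seeing the data. With equal medians, which move the median of all genes to -0.11 (density, bicarbonate) and -0.14 (bicarbonate, high density), the medians of the replication genes were -0.58 for density with bicarbonate, -0.24 for bicarbonate at high density and -0.21 for the difference between densities, and bicarbonate at high density had 4 lower genes. With the mean of all detected probes 0 genes were higher at high density in control medium, 0 were lower with bicarbonate at high density and 2, RRM2 and MCM7, at low density. That mean takes in every probe detected on at least 1 array. The second probe of MCM7 was detected in the low-density control alone (6.42, against 5.27 with bicarbonate), and its brightest probe gave -0.06. Without background correction, and with a log2 level of at least 8, 0 genes were lower with bicarbonate at low density. Of 170 values of single genes past 1.5-fold, 159 stayed past it and 170 kept their sign. The 29 under a detection p under 0.05 and the 25 at a log2 level of at least 8 were unchanged and are no check. Still past it were 26 of 29 from the deposited log2 values and 26 of 29 with the mean of probes. With equal medians it was 29 of 29, and without background correction 24 of 29. ORC1 (-0.51 without background correction), and ORC5, POLE2 and SLBP with bicarbonate (-0.57, -0.55 and -0.57 from the deposited log2 values), fell short. The causes were not tested. Probes near background, such as CDC6, RRM2 and GINS4, limit what can be read. No paired analysis was possible because each group has 1 sample and the labels give no replicate numbers to pair. A fit of density with the medium as a block, which would take the change of the density difference between media as its error, was not run.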
